A study of Mus musculus with 25 samples.

Results

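The receptors described here are 10 genes of the Wnt pathway, chosen by name from the 48440 genes of the count table and not by their values. They are 8 Frizzled genes, Fzd1, Fzd2, Fzd3, Fzd4, Fzd5, Fzd7, Fzd8 and Fzd10, and the co-receptor genes Lrp5 and Lrp6. Their transcripts were counted in 25 bulk RNA-seq libraries of E14 cells, a feeder-free line of mouse embryonic stem (ES) cells grown in serum with leukemia inhibitory factor. In 10 libraries, unedited wild-type E14 cells were kept for 48 h with CHIR99021, an inhibitor of the kinase GSK3, at 0, 2.5, 5, 7.5 or 10 µM, with 2 libraries per dose. The other 15 libraries came from 15 clonal lines kept at 0 µM, each heterozygous for 1 of 11 missense mutations of Ctnnb1, the gene for β-catenin, at serine 37, threonine 41 or serine 45. The study sorted the clones into a low, a medium and a high category by clustering the expression profiles of these same 15 libraries, so tests between categories are not independent of the grouping. The categories are named after a mutation effect score (MES), which the study took from a fluorescent TCF/LEF reporter in a different ES cell line, and the scores of the 3 categories do not overlap. The low clones carried T41N, T41S or S45C (3 clones), the medium clones S45F (2 clones) or S45P, and the high clones S37A, S37C, S37Y, S37F, T41A or T41I (9 clones, of which the last 3 mutations had 2 each). Every clone was a separately picked colony, whereas the unedited cells were not cloned in this way, so mutation and clonal derivation cannot be told apart when clones are set against unedited cells. Nothing in the labels says that the 2 libraries of a dose came from separate cultures, so their p-values measure a spread that may be technical.

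Frizzled proteins are multi-pass membrane receptors whose cysteine-rich extracellular domain binds Wnt ligands, and LRP5 and LRP6 are single-pass co-receptors that join them. A bound pair recruits Dishevelled and Axin to the membrane, which stops GSK3 and casein kinase 1 from phosphorylating β-catenin at its amino-terminal serines and threonines, so that β-catenin accumulates and activates TCF/LEF target genes. CHIR99021 and the mutations studied both act below the receptors in this chain. In ES cells the pathway is known for supporting self-renewal and, at higher activity, for driving cells toward mesendoderm.

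The genes are spread over 8 mouse chromosomes (GENCODE M21, GRCm38), among them Fzd2 on chromosome 11 (102604396-102608058, plus strand), Fzd5 on chromosome 1 (64730558-64737751, minus strand), Fzd7 on chromosome 1 (59482424-59486955, plus strand), Fzd10 on chromosome 5 (128600844-128604093, plus strand) and Lrp6 on chromosome 6 (134446476-134566965, minus strand). Fzd1, Fzd2, Fzd7, Fzd8 and Fzd10 are annotated with 1 exon each, and Lrp6 with 31. Fzd5 is the only one of the 10 to share exon bases with another gene, 1233 bases with the antisense gene Gm38058, which held 3 counts in all 25 libraries together. RefSeq promoter windows (GRCm38.p6, 250 bases before the RefSeq start) were found for 5 of the 10 genes. Those of Fzd5 and Fzd7 are shown because these receptors moved in opposite directions in the high clones, as described further on. Capitals mark the letters CTTTGTT, 1 of the 4 spellings searched for TCF/LEF on both strands (the others were CTTTGAA, then CTTTGAT, then CTTTGTA), here read on the opposite strand.
Fzd5 (chr1:64737752-64738000, minus strand): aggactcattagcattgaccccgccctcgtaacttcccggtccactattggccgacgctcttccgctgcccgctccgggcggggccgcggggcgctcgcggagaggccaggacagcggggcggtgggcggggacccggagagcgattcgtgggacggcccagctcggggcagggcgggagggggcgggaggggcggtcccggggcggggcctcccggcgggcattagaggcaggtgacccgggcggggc
Fzd7 (chr1:59481897-59482146, plus strand): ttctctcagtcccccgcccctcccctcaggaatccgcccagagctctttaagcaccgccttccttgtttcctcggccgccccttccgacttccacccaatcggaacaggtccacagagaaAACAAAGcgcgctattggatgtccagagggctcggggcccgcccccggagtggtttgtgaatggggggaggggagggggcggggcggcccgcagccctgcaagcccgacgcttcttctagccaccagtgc
The Fzd7 window holds the 1 match, 130 to 124 bases before the RefSeq start, and the windows of Fzd1, Fzd4, Fzd5 and Fzd10 hold none. At least 1 match is present in 14.8% of all 32851 windows of this length. The GC box letters GGGCGG, searched on both strands, occur 9 times for Fzd5, 7 times for Fzd4, 6 times for Fzd7, once for Fzd10 and not for Fzd1, against 32.7% of all windows with at least 1. The GC content was 76.4% for Fzd5 and Fzd10, 72.8% for Fzd4, 65.2% for Fzd7 and 51.2% for Fzd1, beside a median of 52.4% over all windows. GENCODE starts Fzd7 277 bases downstream of the RefSeq start, and places the whole Fzd10 window inside the transcript, so that window is not shown.

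Libraries held 306157 to 2083398 counts, and a count of 0 allowed up to 1.44 to 9.80 CPM, the unit of all levels given below, which is the count of a gene scaled to the total count of its library. The shallowest library, 10 µM replicate 1, held 9 to 20 counts of each of Fzd2, Fzd5, Fzd7, Fzd10 and Lrp6, so its intervals are wide. Mitochondrial genes took 0.485 to 0.562% of counts in 4 of the unedited libraries (0 µM replicate 2 and replicate 1 of 2.5, 5 and 10 µM) and 0.986 to 1.46% in the other 6. The summed level of 7 ES cell markers was 1660 to 4552 CPM over all libraries. Pou5f1, a defining gene of this state, had a mean of 17.2 CPM in untreated cells and 19.9 CPM over the clones. Levels of different genes are not comparable in these 3′ counts, so this is not read as a trait of the cells. Axin2, a direct β-catenin target, rose from 15.8 and 13.8 CPM at 0 µM to 98.0 and 134 CPM at 10 µM. In bulk RNA, fewer cells of a type and less RNA per cell cannot be told apart.

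**Figure D1:**
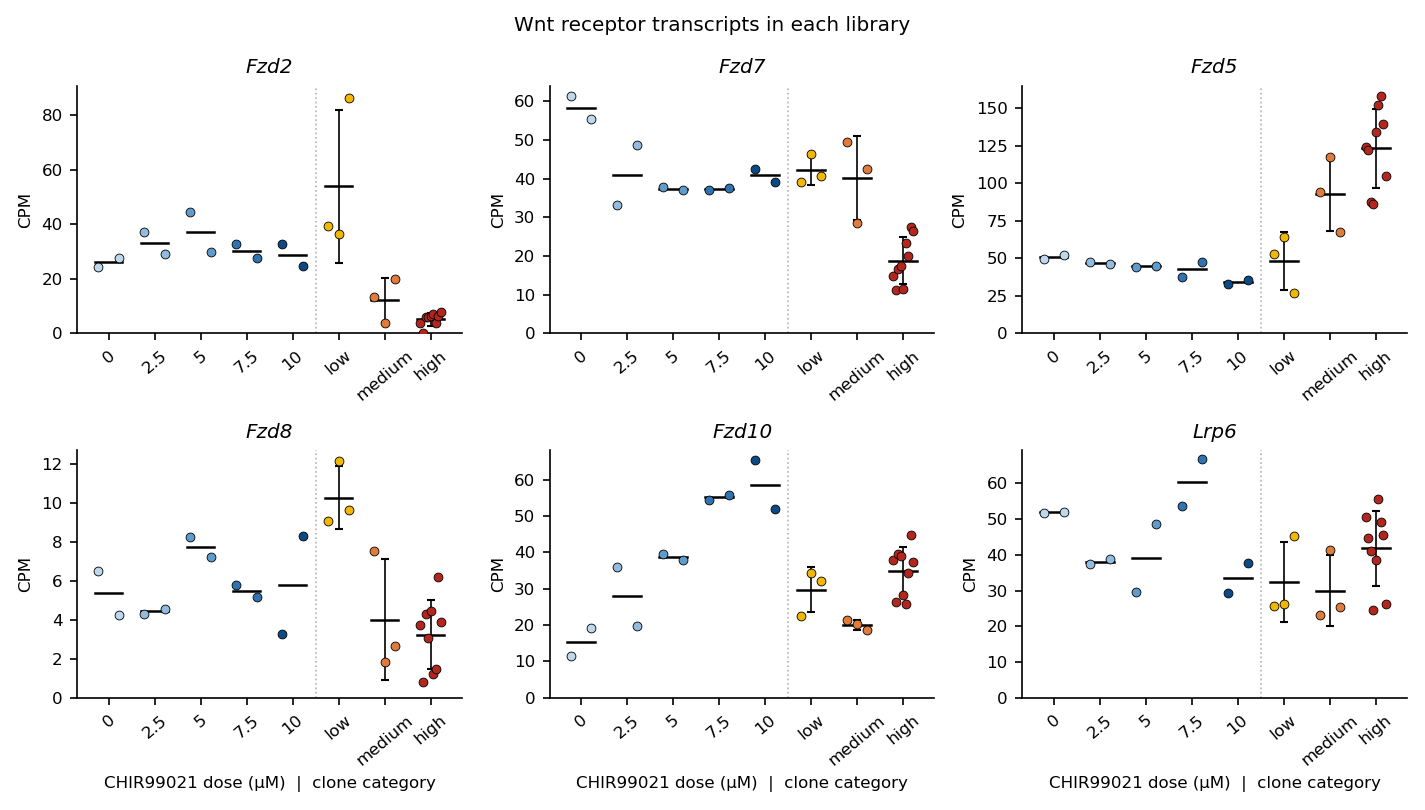
Level of 6 receptor transcripts (CPM, linear axis from 0) in each of the 25 libraries, by CHIR99021 dose in unedited cells on the left of the dotted line and by clone category on the right. Points are libraries, horizontal bars are means and error bars are 1 SD where a group has more than 2 libraries. Fzd10 climbs with dose from 11.4 and 19.1 to 65.3 and 52.0 CPM, whereas Fzd2 falls to 0 to 7.76 CPM and Fzd5 reaches 85.9 to 158 CPM in the high clones.

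The first comparison asked which receptor transcripts followed the dose of the inhibitor. Fzd10 rose with dose and Fzd7 fell, and these were the 2 called among the 7 receptors abundant enough to be tested, where 12.6% of all 10674 genes tested were called (5.71% rising and 6.85% falling). A call here is an adjusted p under 0.05 in the quasi-likelihood test of edgeR, adjusted after Benjamini and Hochberg over all genes tested. The median change over the 7 receptors was -0.03 on the log2 scale per 10 µM, and that over all genes was 0.00.

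Fzd10 belongs to the Frizzled branch that also holds Fzd4 and Fzd9, and is known from the developing neural tube and limb. Its level was 11.4 and 19.1 CPM at 0 µM, 35.9 and 19.8 CPM at 2.5 µM, 39.5 and 37.9 CPM at 5 µM, 54.4 and 55.9 CPM at 7.5 µM and 65.3 and 52.0 CPM at 10 µM. All 4 libraries at 7.5 and 10 µM were higher than all 6 at the lower doses, and 1 library at 2.5 µM was close to the untreated level. The fitted trend was a log2 change of 1.95 ± 0.27 (SE) per 10 µM, or 3.85-fold, with an adjusted p of 4.6e-06 in edgeR. Leaving out any 1 library gave 1.58 to 2.33, so the rise was present in every such fit. Within the 4 libraries of lower mitochondrial share Fzd10 went from 19.1 to 65.3 CPM between 0 and 10 µM, and within the other 6 from 11.4 to 52.0 CPM. With that set as a block the log2 changes per 10 µM were 2.03 for Fzd10 and -0.68 for Fzd7, both called.

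Fzd7 is a close relative of Fzd1 and Fzd2 and is known as a main Wnt receptor of pluripotent cells. It stood at 61.4 and 55.3 CPM without inhibitor, 33.1 and 48.8 CPM at 2.5 µM, 37.8 and 37.0 CPM at 5 µM, 37.0 and 37.5 CPM at 7.5 µM and 42.5 and 39.2 CPM at 10 µM. Both untreated libraries were above all 8 treated ones, and among the treated doses the 10 µM libraries were above those at 5 and 7.5 µM, all within the range of the 2.5 µM pair. The log2 change was -0.64 ± 0.20 (SE) per 10 µM, with an adjusted p of 0.0344 in edgeR. This call rested on the untreated libraries: without 0 µM replicate 1 the change was -0.44 with an adjusted p of 0.39, and without 0 µM replicate 2 it was -0.60 with an adjusted p of 0.107. It was also lost without either library at 7.5 µM, with adjusted p of 0.0699 and 0.0725.

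For the other 5 receptors tested no trend was called. Fzd5, a receptor whose loss is lethal in the mouse embryo through yolk sac defects, lay at 49.5 and 52.1 CPM at 0 µM and at 32.7 and 35.4 CPM at 10 µM, with a log2 change of -0.43 ± 0.19 (SE) and an adjusted p of 0.149 in edgeR. Fzd2 lay between 24.5 and 44.4 CPM in all 10 libraries and Lrp6, the more widely required of the co-receptors, between 29.4 and 66.8 CPM. The 95% intervals of the log2 change per 10 µM were -0.46 to 0.58 for Fzd2, -0.52 to 0.46 for Lrp6, -0.73 to 1.34 for Fzd8 and -1.91 to 0.48 for Lrp5. The last 2 rested on 1 to 15 counts per library, so a rise of Fzd8 or a fall of Lrp5 by more than 2-fold is within what this depth allows.

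Cell state markers moved with the dose as well. Of 6 mesendoderm markers 3 were tested and 2 rose, T and Mixl1. The sum of all 6 went from 16.3 to 20.2 CPM in untreated cells to 48.9 to 150 CPM in treated cells. Of 7 ES cell markers 5 fell with dose. The sum of all 7 was 4168 to 4199 CPM in untreated and 2901 to 3876 CPM in treated cells. Of the 4 neural markers tested 2 fell with dose. The sum of the whole neural list was 90.2 to 91.4 CPM in untreated and 41.4 to 63.2 CPM in treated cells. The part of these shifts in the Fzd10 and Fzd7 trends was not tested.

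The second comparison asked which receptors differed with the strength of the mutation, by category and by the reporter score itself. Because the categories came from these libraries, p-values between them describe the size of a difference against the spread and are not independent evidence of it, whereas the MES was measured apart from them. With MES as a number over the 15 clones, Fzd2 and Fzd7 fell and Fzd5 rose, 3 of the 6 receptors tested, where 23.5% of 10452 genes were called. Clones that share a mutation have the same score but entered this fit as separate samples. The MES trend was not fitted with clones summed per mutation. Between high and low clones Fzd2, Fzd7 and Fzd8 fell and Fzd5 rose, 4 of the 6 receptors tested, where 29.8% of 10452 genes were called (13.1% rising and 16.6% falling). The median log2 change of the 6 receptors was -0.47, beside 0.01 over all genes. For the 4 called receptors the ranges of the high and the low clones did not overlap. This describes the values that gave the calls and is no further support. The share of all genes with such a separation was not computed. The filter on low counts asked for 7.44 CPM in 3 clones, which Fzd8 reached in the 3 low clones and 1 medium clone only, and Fzd2 in 3 low, 2 medium and 1 high clone. Both thus entered the test mainly through the category where they were high, and the count of 4 is no support for the list as a whole.

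Fzd2 showed the widest difference of the receptors tested. It was at 39.2 CPM in the S45C clone, 36.3 CPM in T41N and 86.4 CPM in T41S, and in the 9 high clones it ranged from 0 to 7.76 CPM with a median of 6.14 CPM. The S37C clone held no Fzd2 count among 1251038, which allows up to 2.40 CPM, and the other 8 high clones held 5 to 13 counts each. The log2 change was -3.42 ± 0.37 (SE), or 10.7-fold lower in the high clones, with an adjusted p of 3.19e-07 in edgeR. The T41S clone was above the other low clones, and without it the change was -2.78 (adjusted p of 0.00032), with 1653 genes called in place of 3110. Per 20000 units of MES the log2 change of Fzd2 was -3.15 ± 0.41 (SE, adjusted p of 1.17e-05 in edgeR), and -2.48 without T41S (adjusted p of 0.00439).

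Fzd7 was the second member of the same branch to fall. The low clones held 39.2, 46.4 and 40.7 CPM (S45C, T41N and T41S), and the high clones 11.2 to 27.6 CPM with a mean of 18.7 ± 6.04 CPM (SD, n = 9). The log2 change was -1.15 ± 0.25 (SE), with an adjusted p of 0.00135 in edgeR, and per 20000 units of MES it was -1.11 ± 0.28 (SE, adjusted p of 0.00586). In the medium clones Fzd7 overlapped with the low clones, at 49.6 and 28.4 CPM in S45F and 42.6 CPM in S45P. All 9 high clones were below all 3 medium clones, and the log2 change from medium to high was -1.08 ± 0.24 (SE, adjusted p of 0.0149 in edgeR).

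Fzd5 rose over the categories. It was at 52.8, 64.6 and 27.1 CPM in the low clones S45C, T41N and T41S, at 94.1 and 117 CPM in the S45F clones and 67.9 CPM in S45P, and at 85.9 to 158 CPM in the high clones, with a mean of 123 ± 26.2 CPM (SD, n = 9). All 3 medium clones were above the highest low clone, and medium and high clones overlapped. The log2 change was 1.51 ± 0.25 (SE) from low to high (adjusted p of 8.19e-05 in edgeR) and 1.08 ± 0.29 (SE) from low to medium (adjusted p of 0.017). Without T41S, the lowest of the clones, these were 1.11 with an adjusted p of 0.00657 and 0.70 with an adjusted p of 0.247. The difference between low and medium was also lost without S45F replicate 2 (adjusted p of 0.0904) and with counts thinned to the smallest library (0.136). Per 20000 units of MES Fzd5 rose by 1.13 ± 0.28 on the log2 scale (SE, adjusted p of 0.00563 in edgeR), and without T41S by 0.72, which was not called (0.0958).

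Fzd8, the closest relative of Fzd5, was scarce and moved the other way. Its level was 9.05, 12.1 and 9.60 CPM in the low clones, 7.53, 1.83 and 2.66 CPM in the medium clones and 0.799 to 6.20 CPM in the high clones, which amounts to 1 to 9 counts per high clone. The log2 change from low to high was -1.58 ± 0.46 (SE), with an adjusted p of 0.0121 in edgeR. Since no high clone reached the level of the filter, Fzd8 was tested only because it was higher elsewhere. The call was lost without the T41S clone (adjusted p of 0.0889), and with MES as a number the change was -1.22 ± 0.47 (SE, adjusted p of 0.0644).

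Fzd10 and Lrp6 were not called between high and low clones, with log2 changes of 0.21 (95% interval -0.22 to 0.64) and 0.27 (-0.26 to 0.80). Fzd10 was at 22.6, 34.3 and 32.2 CPM in the low clones, 21.3, 20.2 and 18.6 CPM in the medium clones and 25.8 to 44.8 CPM in the high clones. All 9 high clones were above the 3 medium clones, and Fzd10 rose from medium to high by 0.81 ± 0.21 on the log2 scale (SE, adjusted p of 0.0341 in edgeR). Per 20000 units of MES the change of Fzd10 was 0.48 (95% interval 0.04 to 0.92, adjusted p of 0.103), and it was called without T41S (0.83, adjusted p of 0.0284). For Lrp6 it was 0.22 (-0.30 to 0.74).

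Between medium and low clones 2 of the 6 receptors were called, Fzd5 as above and Fzd2, which fell by 2.32 on the log2 scale (SE 0.48, adjusted p of 0.00271), where 3.66% of genes rose and 7.29% fell. Between high and medium clones the 2 called were Fzd7 and Fzd10, where 4.51% of genes were called (2.13% rising and 2.37% falling). With 3 clones in the low and in the medium category, these calls depended on single clones. Without T41S the Fzd2 difference between medium and low had an adjusted p of 0.111, and the Fzd7 and Fzd10 differences between high and medium were lost without S45F replicate 1 (adjusted p of 0.142 and 0.115) or without S45P (0.0614 and 0.118). The Fzd10 difference was also lost without S45F replicate 2 (0.142), without S37A (0.0575), with thinned counts (0.191) and with clones summed per mutation (0.102).

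**Figure D2:**
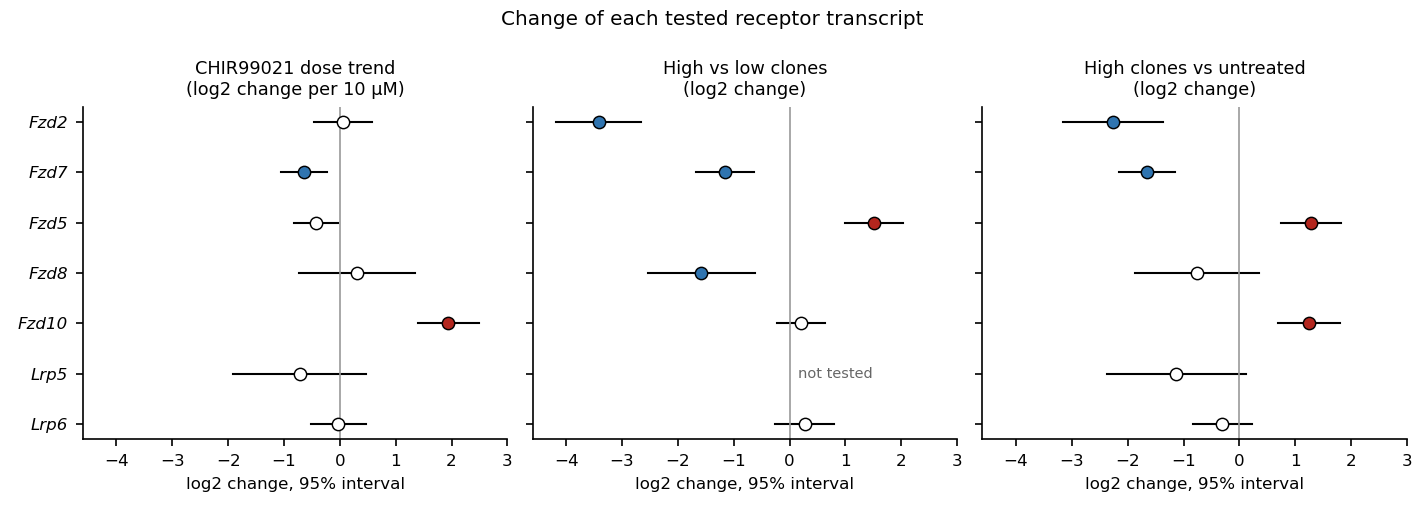
Log2 change of the 7 receptors tested in at least 1 comparison, with 95% intervals, per 10 µM CHIR99021 (left), in high against low clones (middle) and in high clones against untreated unedited cells (right). Red and blue points passed an adjusted p of 0.05 as rises and falls, and open points did not. Fzd10 leads on the left at 1.95, and Fzd2 in the middle at -3.42.

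Several markers of cell states moved with the clone categories. Of 6 neural markers, 4 were tested and all 4 fell from low to high clones. The sum of all 6 was 151 to 238 CPM in low, 101 to 142 CPM in medium and 21.6 to 97.0 CPM in high clones. Neurog2 was at 0 in all libraries of each category. The 5 fibroblast markers summed to 48.3 to 166 CPM in low clones, 4.59 to 21.3 CPM in medium clones and 4.82 to 16.3 CPM in high clones, with Postn at 0 in all medium clones, and Col1a1, the only 1 tested, fell by 4.21 on the log2 scale. ES cell markers went the opposite way, with 5 of 7 rising. The sum of all 7 was 1660 to 2608 CPM in low clones and 3580 to 4552 CPM in high clones. Of 5 endoderm markers 4 were tested and Gata6 alone rose. The sum of all 5 was 4.53 to 20.3 CPM in low, 1.33 to 18.3 CPM in medium and 5.43 to 213 CPM in high clones, with a median of 37.4 CPM in the high clones, so the ranges overlapped. Of 6 mesendoderm markers 2 were tested, T and Eomes, and neither was called from low to high clones (0.13 and 0.37). From low to medium clones Eomes fell (-1.88, adjusted p of 0.0284 in edgeR) and T was not called (-1.28, 0.144). The sum of all 6 was 18.2 to 72.9 CPM in low, 16.3 to 30.6 CPM in medium and 27.1 to 93.1 CPM in high clones. The part of these cell states in the receptor differences was not tested.

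Set against the 2 untreated libraries of unedited cells, the high clones held less Fzd2 and Fzd7 and more Fzd5 and Fzd10. These were 4 of 7 receptors tested, where 32.0% of 11018 genes were called (15.3% rising and 16.7% falling). For all 4 the 9 high clones lay wholly outside the untreated values. With only 2 untreated libraries, and for receptors called on the same values, this is no further support. The share of all genes that did so was not computed. The log2 changes were -2.26 ± 0.43 for Fzd2, -1.65 ± 0.25 for Fzd7, 1.28 ± 0.26 for Fzd5 and 1.25 ± 0.27 for Fzd10 (SE), with adjusted p of 0.000441, 3.24e-05, 0.000738 and 0.00124 in edgeR. The Fzd10 difference was 0.84 with an adjusted p of 0.135 without 0 µM replicate 1, the lower of the untreated libraries. In the low clones 1 of the 7 receptors was called, Fzd10, which was higher by 1.02 ± 0.32 on the log2 scale (SE, adjusted p of 0.0165), where 30.9% of genes were called (16.4% rising and 14.5% falling). That call was lost without 0 µM replicate 1 (0.60, adjusted p of 0.332) without T41S (0.90, adjusted p of 0.0882) and with thinned counts (0.89, adjusted p of 0.096). Fzd2 in the low clones was above both untreated values of 24.5 and 27.6 CPM in 3 of 3 clones, with a log2 change of 1.14 (95% interval 0.20 to 2.08) and an adjusted p of 0.0587. It thus lay on opposite sides of the untreated level in low and high clones, although the test called the high side and not the low. The low side rested on T41S, without which it was 0.51 with an adjusted p of 0.5, and it was called with no filter on low counts (0.00779) and without S37C, S45C, S45F replicate 2 or T41N (0.0302, 0.0343, 0.0434 and 0.0407). Low and high clones are set here against the same untreated libraries. Mitochondrial genes took 1.53 to 2.52% of counts in the clones, more than in any unedited library. Markers moved here too: from untreated cells to high clones Col1a1 fell by 2.31, Nes by 1.44 and Map2 by 1.74 on the log2 scale, and Gata6 rose by 2.77 and Zfp42 by 1.42. Of the markers tested, 3 of 7 for ES cells, 2 of 2 for mesendoderm and 2 of 4 for endoderm rose, and 1 of 7 for ES cells, 3 of 5 for neural cells and the 1 fibroblast marker fell. From untreated cells to low clones 2 of 5 neural markers rose (Nes by 2.00 and Tubb3 by 1.34), as did Col1a1 (by 1.89). Over that step 3 of 7 ES cell markers fell (Tdgf1 by 1.54, Dppa5a by 1.44 and Esrrb by 0.73), and no mesendoderm or endoderm marker was called. The part of either in the receptor differences was not tested.

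The levels can also be put in order over the 8 conditions. For Fzd2 the high clones were lowest (mean 5.22 ± 2.39 CPM, SD, n = 9) and the medium clones next (12.3 ± 8.19 CPM, n = 3), and these overlapped. Then came a gap to the unedited cells, in which the 5 doses overlapped from neighbor to neighbor at 26.1 to 37.1 CPM, and the low clones were highest (54.0 ± 28.1 CPM, n = 3). The low clones also overlapped with the next highest condition, 5 µM. For Fzd5 all 5 doses and the low clones lay at means of 34.0 to 50.8 CPM, below the medium clones (93.1 ± 24.8 CPM) and the high clones. For Fzd7 the high clones stood alone at the bottom, the untreated cells alone at the top, and the 6 other conditions overlapped from neighbor to neighbor at means of 37.2 to 42.1 CPM. For Fzd10 the clones fell among the low doses, with mean levels of 20.1, 29.7 and 34.8 CPM in medium, low and high clones, and 7.5 and 10 µM stood apart at the top with 55.2 and 58.6 CPM. Lrp6 showed no such separation, with means from 29.9 CPM in medium clones to 60.3 CPM at 7.5 µM, and only the 7.5 µM libraries were above the range of their neighbor.

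The third comparison tested whether the step from low to high clones differed from the step from 0 µM to the mean of 7.5 and 10 µM, in a single model of all 25 libraries. It rests on the same categories as above. It was called for 3 of the 7 receptors tested, where 21.1% of 11375 genes were called (9.73% with a positive and 11.3% with a negative difference). Fzd2 fell more over the clone step than over the drug step by 3.58 ± 0.52 on the log2 scale (SE, adjusted p of 9.11e-06 in edgeR). Fzd5 changed by 1.92 ± 0.36 more (SE, adjusted p of 0.000235), having risen in the clones and not with the drug. Fzd10 changed by -1.73 ± 0.36 (SE, adjusted p of 0.000656), having risen with the drug and not over the clone step. This was not particular to Fzd10. From low to high clones the Wnt target Axin2 rose by 0.85 (adjusted p of 0.0134), and the target Sp5 was not called (0.26, adjusted p of 0.511). Their differences between the steps were -2.19 and -3.13 (adjusted p of 0.000186 and 7.65e-06 in edgeR). That of a further target, Cdx1, was not called (-0.42, adjusted p of 0.449). The clone step starts at low clones and the drug step at untreated cells. Low clones were above untreated cells by 1.23 for Axin2, 2.13 for Sp5 and 1.02 for Fzd10, all called, the last depending on single libraries as given above. Cdx1 was not called there (0.28). High clones were above untreated cells by 2.09, 2.41 and 1.25 for these 3 and by 3.12 for Cdx1, all called. For Fzd7 the difference was -0.54 with a 95% interval of -1.25 to 0.16, and for Lrp6 0.43 with an interval of -0.31 to 1.17. For Fzd8 it was -1.71 (-3.10 to -0.31), with an adjusted p of 0.0736 (0.0468 without T41I replicate 1).

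**Figure D3:**
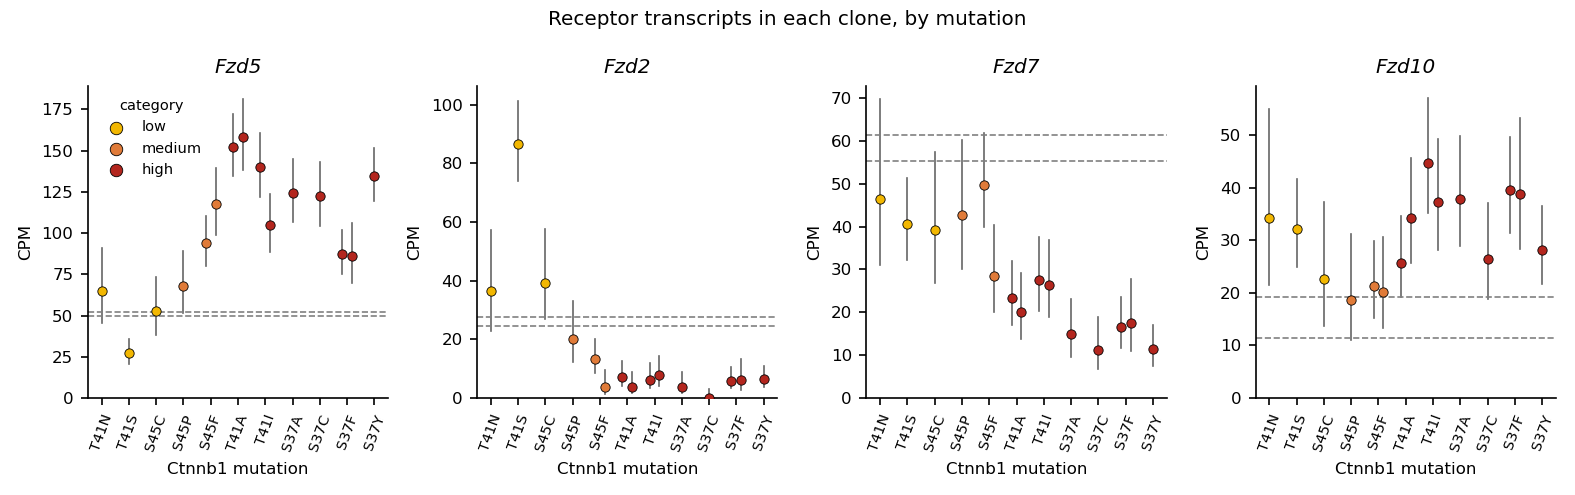
Level of Fzd5, Fzd2, Fzd7 and Fzd10 (CPM, linear axis from 0) in each of the 15 clones, by mutation, colored by category. Vertical lines are Wilson 95% intervals of the single library, which cover counting error only, and dashed lines are the 2 untreated unedited libraries. Fzd5 is highest in the T41A clones at 152 and 158 CPM, and Fzd2 is highest in T41S at 86.4 CPM.

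Clones that share a mutation could be compared for S37F, T41A, T41I and S45F, which had 2 clones each. Wilson 95% intervals of the 2 clones overlapped in 39 of 40 pairs of gene and mutation. The exception was Fzd3 in T41A with 0 and 8 counts. Such intervals are wide at low counts, so overlap does not show equal levels. Pairs that overlapped included Fzd2 in S45F at 13.2 and 3.67 CPM and Fzd8 in S45F at 7.53 and 1.83 CPM. Across 10791 to 11087 genes, the spread between paired clones exceeded counting error. Chi-square per degree of freedom was 1.75 for T41A, 2.92 for S37F, 2.94 for S45F and 3.66 for T41I. The share of overlapping pairs over all genes was not computed. For Fzd5 the SD of log2(CPM + 1) within a mutation was 0.19, beside 0.32 over the 9 high clones and 0.67 over all clones. Fzd5 varied among the high mutations, with 152 and 158 CPM in T41A, 140 and 105 CPM in T41I, 134 CPM in S37Y, 124 CPM in S37A, 122 CPM in S37C and 87.5 and 85.9 CPM in S37F. The S37F clones were the lowest of the category and their intervals did not reach those of T41A. Fzd10 was as close within a mutation (SD 0.17), for example 39.5 and 38.9 CPM in S37F and 21.3 and 20.2 CPM in S45F. Fzd7 lay at 11.2 to 17.4 CPM in the 5 clones mutated at codon 37 and at 20.1 to 27.6 CPM in the 4 high clones mutated at codon 41, a split noticed after the values were seen and not tested. Lrp6 spread as widely within a mutation (SD 0.47) as over all clones (0.44), for example 41.1 and 24.5 CPM in S37F.

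The remaining receptors were too scarce for most tests. Fzd1 held 2 to 7 counts per unedited library and 0 to 4 counts in 14 of the 15 clones, and the T41S clone held 22 counts, or 12.4 CPM with a Wilson interval of 8.21 to 18.8 CPM. Fzd1 and Fzd2, which share a branch, were thus both highest in the same clone. Fzd3, known for axon guidance through planar cell polarity signaling, held 0 to 8 counts in every library. Fzd4, the receptor of Norrin in retinal vessels, also held 0 to 8 counts, and none at 10 µM replicate 1, where 0 counts allow up to 9.80 CPM. Lrp5, known for its role in bone mass, held 1 to 15 counts per library. It had a mean of 7.44 ± 4.15 CPM in low clones (SD, n = 3) and 2.49 ± 2.00 CPM in high clones (SD, n = 9), and the groups overlapped through the S37F clone with 7.47 CPM. None of Fzd1, Fzd3 and Fzd4 passed the filter on low counts in any comparison, and Lrp5 passed it only where unedited libraries were included.

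Genes that act beside the receptors were taken from lists chosen by role. The median log2 change per 10 µM was 0.73 for other Wnt receptors, 1.52 for receptor turnover, -0.61 for antagonists and trafficking factors and 0.17 for intracellular partners, beside 0.00 over all genes. From low to high clones these medians were -0.67, -0.08, 0.20 and -0.16, beside 0.01 over all genes. Shares of all genes called were 12.6% with dose and 29.8% from low to high clones, against which the counts of these short lists are to be read. Among 6 other Wnt receptors, Ryk and Ptk7, which serve β-catenin-independent signaling, rose with dose (2 of 4 tested, log2 change 0.61 ± 0.15 and 0.95 ± 0.18 per 10 µM, SE) and fell from low to high clones (2 of 3 tested, -0.73 ± 0.15 and -0.67 ± 0.16). For both the difference between the 2 steps was itself called, at -1.23 and -1.67. Among 9 genes of receptor turnover, the ubiquitin ligases Rnf43 and Znrf3, which remove Frizzled proteins from the cell surface, rose with dose by 2.12 ± 0.33 and 1.38 ± 0.25 on the log2 scale (2 of 4 tested). Both are known β-catenin targets, and Znrf3 is among the targets the study picked on these samples, so its rise is not independent evidence. Rnf43 went from a mean of 6.18 CPM in untreated cells to 23.3 CPM at 7.5 µM, and in the clones of all categories together its mean was 2.23 CPM. It was too low to test between clone categories or between low or high clones and untreated cells. Lgr4, a receptor of R-spondins that counteracts these ligases, fell from low to high clones by 0.73 on the log2 scale, 1 of the 2 tested there.

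Of 18 secreted antagonists and trafficking factors, most were too low to test. The Wnt-binding antagonists Sfrp1 and Sfrp2 fell with dose (2 of 6 tested), by 1.02 and 0.84 on the log2 scale per 10 µM. From low to high clones Sfrp1 rose by 1.02 and Sfrp2 fell by 1.41 (SE 0.24 and 0.23, 2 of 7 tested, beside 29.8% of all genes). Of 12 intracellular partners of the receptors, Cdk14, a kinase that phosphorylates LRP6, rose with dose by 1.24 ± 0.41 (1 of 11 tested, against 12.6% of all genes). It fell from low to high clones by 2.84 on the log2 scale, beside falls of Gsk3b and Csnk1g3 and rises of Axin1 and Dvl2 (5 of 11 tested).

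**Figure D4:**
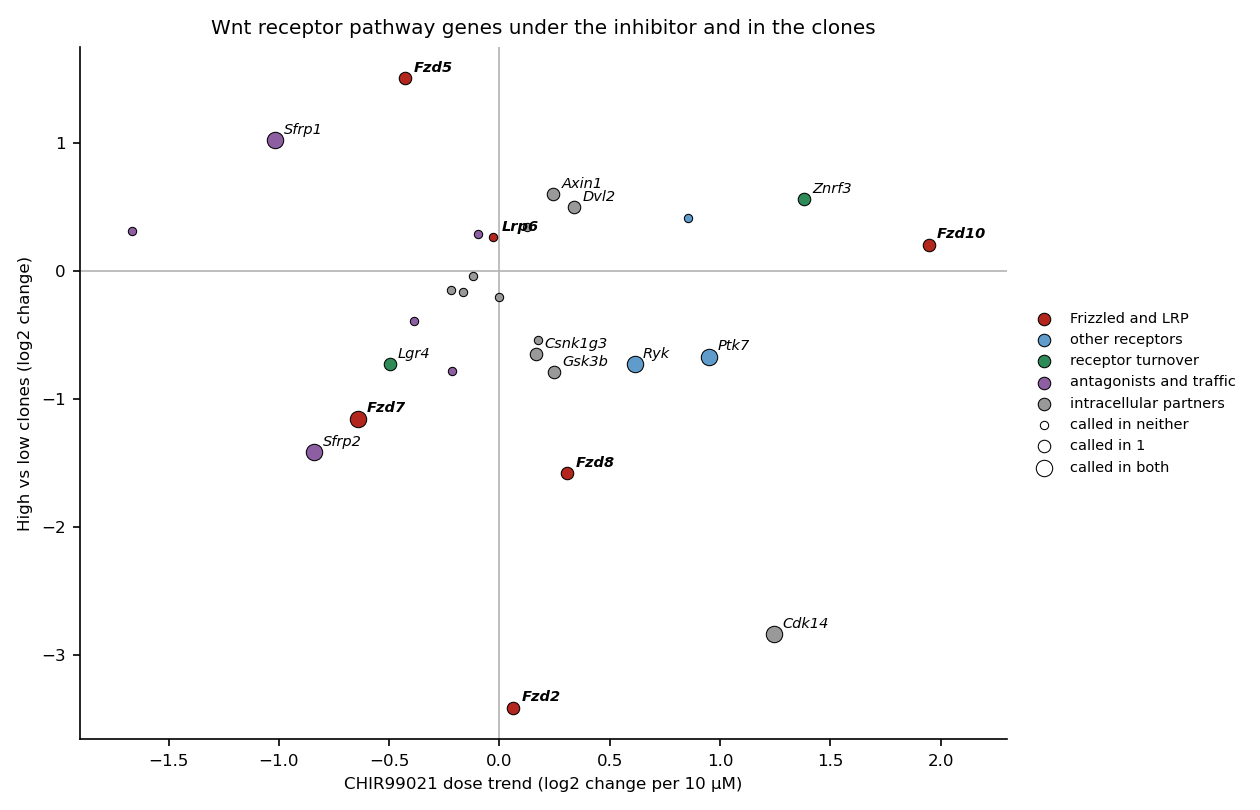
Log2 change per 10 µM CHIR99021 (horizontal axis) against log2 change from low to high clones (vertical axis) for the 28 genes of the receptor pathway lists tested in both. Colors mark the list and point size the number of the 2 comparisons in which a gene was called. Fzd10 lies at the far right with little vertical change (0.21), Fzd2 at the bottom with little horizontal change (0.06), and Fzd7 beside Sfrp2 at the lower left.

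The 2 comparisons in that plot share no library, and 12.6% and 29.8% of all genes were called in them. Of the 28 genes 6 were called in both, and the share of all genes called in both was not computed. Fzd7, the only Frizzled or LRP gene among them, and Sfrp2 fell in both. Ryk, Ptk7 and Cdk14 rose with dose and fell from low to high clones, and Sfrp1 did the reverse. Against untreated cells the low clones held more Cdk14 (2.28, adjusted p of 0.00531 in edgeR) and Ryk (0.63, 0.0265). They held less Sfrp1 (-1.25, 0.00193), and Ptk7 was not called (0.56, 0.0579). In high clones against untreated cells none of Cdk14, Ryk, Ptk7 and Sfrp1 was called (-0.54, -0.08, -0.10 and -0.21). The dose call of Fzd7 was lost without single libraries, as given above. The genes whose levels ran most like each called receptor were found by Pearson's r of log2 CPM over the 25 libraries, among the 9045 genes whose mean level reached 10 CPM. They are a description, since all genes share the same libraries and depths. Fzd10 ran most like the Wnt targets Sp5 (r = 0.87), Axin2 (0.82) and Msx1 (0.76). Fzd5 ran most like Nr0b1 (0.96), a nuclear receptor of naive ES cells, Mtf2 (0.95) and Cdc5l (0.94). Fzd2 ran most like Pkp2 (0.92), Eva1b (0.91) and Col1a1 (0.91), the fibroblast marker given above. For Fzd7 the closest were Tfap2c (0.87), Sfrp2 (0.85) and Trp53bp1 (0.84), and for Fzd8, compared with 9046 genes, Sox4 (0.80), Cpne2 (0.79) and Cnn1 (0.77).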

How the data were processed

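The authors performed mcSCRB-seq, a bulk 3′ RNA-seq method that tags each molecule with an identifier, on 25 samples of E14 cells. The deposited values are counts of deduplicated molecules per gene, not normalized. By the authors' account, reads were aligned to mm10 with RNA STAR and counted with featureCounts 2.0.1, and the other tools of the workflow include FastQC, bedtools, Picard, SortMeRNA, UMI-tools and Cutadapt. The annotation release and strandedness of counting are not given in the sources used here. Because 3′ counts carry no gene length, levels were compared between samples and not between genes.

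CPM were computed from total counts, 306157 to 2083398 per library. Wilson 95% intervals, and a limit of 3 counts where none was seen, cover counting error only. Symbols and coordinates came from GENCODE M21, in which 48058 of 48440 gene IDs were found, and the 382 others were kept under their IDs. Replicates of each dose or mutation differed by more than sampling noise (chi-square test) and were kept as separate samples.

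Tests used edgeR 4.0.16 in R 4.3.3 with TMM factors, a minimum count of 10 in filterByExpr and the quasi-likelihood F-test (threshold 0.05 after Benjamini-Hochberg adjustment over all genes tested), fitted to the 10 unedited libraries with dose as a number, to the 15 clones with category as a factor or, added after the data were seen, with MES as a number, to these with the 2 untreated libraries, and to all 25 for the difference between steps. Standard errors are the log2 change over the square root of F. Scripts were tested on simulated data. Alternatives were RLE factors, DESeq2 1.42.0, no filter, counts thinned to the smallest library, leaving out each library, blocks, clones summed per mutation and MES as a number. Samples were grouped by the labels' dose and genotype, and mutations by the categories of the study, which clustered these libraries. The MES of each mutation came from its supplement. Replicate numbers of the doses were not taken as pairs, since deviations of same-numbered libraries correlated at -0.14 to 0.13, above 0.1 in 2 of 10 comparisons.

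All 10 receptors were to be named, and for each called in the dose trend or in high against low clones the 3 genes of highest Pearson's r. The members and lists were chosen with earlier results of these data known.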

Additional observations from a re-analysis of the deposited data

Results flagged for a closer look

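The difference between the step from low to high clones and the step from 0 µM to the mean of 7.5 and 10 µM was called for 3 receptors, at -3.58 for Fzd2, 1.92 for Fzd5 and -1.73 for Fzd10 on the log2 scale (adjusted p of 9.11e-06, 0.000235 and 0.000656 in edgeR's quasi-likelihood test). With any 1 library left out these ranged from -3.78 to -2.92, from 1.50 to 2.15 and from -2.06 to -1.30, and all stayed called.

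Among the 9 high clones 2 values stood apart from the rest by Dixon's criterion, whose 95% critical value is 0.493 for 9 samples. Lrp5 was at 7.47 CPM in S37F replicate 1, from 14 counts, with a gap to the next clone of 0.658 of the range. Fzd1 was at 3.20 CPM in S37C, from 4 counts, with a gap of 0.537 of the range. Chance flags about 1 in 20 groups and 10 were examined. Both genes rest on few counts per library, and without that S37F clone the difference of Lrp5 between high clones and untreated cells was -1.60 with an adjusted p of 0.0246, beside -1.13 and 0.154 with it.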

How the results depend on the processing

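With other normalization factors, another tool, no filter, thinning or another predictor, 253 of 266 comparisons of a value with its main fit kept direction and side of the threshold, and 805 of 843 did with a single library left out. The calls for Fzd10 with dose and for Fzd2, Fzd5 and Fzd7 between high and low clones or between high clones and untreated cells stayed under every alternative run. Thinning to the smallest library moved the counts of called genes to 286 (from 1341) for the dose trend, 1906 (from 3110) for high against low, 584 (from 1145) for medium against low, 190 (from 471) for high against medium, 2064 (from 3401) and 1951 (from 3522) for low and high against untreated, 801 (from 2396) for the difference between steps and 1508 (from 2460) for the MES trend, and Fzd7 lost its dose call (adjusted p of 0.535). High against medium called 739 genes with no filter and 240 with clones summed per mutation. Thinning turned the Lrp6 difference between steps to -0.035 (adjusted p of 0.98) and the Lrp6 trend with MES to -0.045 (0.934), none of these values being called. The Fzd7 dose call was also lost with DESeq2 (adjusted p of 0.112), with 10 µM against 0 µM (0.117) and with the replicate number as a block (0.0505, the trend being -0.64), although the pairing is not given by the labels. The dose count under the replicate block was 1186, and with clone number as a block high against low called 3003, medium against low 976 and high against medium 473, with no other call changed. Fzd8 between high and low clones was not called with MES as a number (0.0644), nor Fzd5 between steps when thinned (0.0597). With a single library left out the counts ranged from 547 to 1412 for the dose trend, 1653 to 3264 for high against low, 276 to 1433 for medium against low, 106 to 811 for high against medium, 1672 to 3479 and 1268 to 3748 for low and high against untreated, 1344 to 2522 for the difference between steps and 1270 to 2669 for the MES trend. The lowest counts came without 0 µM replicate 1 (547, 1672 and 1268), T41S (1653, 276, 1344 and 1270) or S45F replicate 2 (106). For changes that were not called, a single library could turn the sign: the log2 changes ranged from -0.18 to 0.27 for Fzd2 and -0.27 to 0.19 for Lrp6 with dose, -0.25 to 0.14 for Fzd7 and -0.55 to 0.20 for Lrp6 between medium and low clones, -0.73 to 0.59 for Fzd8 between high and medium clones, and -0.48 to 0.16 for Fzd5 and -0.42 to 1.08 for Lrp5 between low clones and untreated cells. Lrp6 was called between low clones and untreated cells without T41S only (-1.04, adjusted p of 0.0485), and Fzd8 with MES without T41I replicate 1 only (-1.36, adjusted p of 0.0437). Without the filter Fzd1 was called between high and low clones (-2.67, adjusted p of 0.00109), on counts that lie mostly in the T41S clone. At 306157 to 2083398 counts per library, Fzd1, Fzd3, Fzd4, Fzd8 and Lrp5 are limited by depth.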
